A study of Caenorhabditis elegans with 36 samples.

Results

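The 10 genes described here encode Argonautes of the small RNA pathways of *Caenorhabditis elegans*: *alg-1*, *alg-2*, *rde-1*, *ergo-1*, *prg-1*, *csr-1*, *nrde-3*, *hrde-1*, *wago-1* and *ppw-1*. They were taken by gene symbol from a table of 18949 genes, and each of the 10 symbols was found. Wild-type N2 worms were fed *cco-1* RNAi or control bacteria, and RNA of whole animals was sequenced at 6 ages, on every other day of adulthood between day 1 and day 11. Each combination of RNAi and age was a group of 3 biological replicates, which gives 12 groups and 36 libraries. In the *cco-1* RNAi groups 50% of the bacteria made double-stranded RNA of *cco-1*, a gene of respiratory complex IV, and the rest held the empty vector. In the ev groups (control) the bacteria held the empty vector alone, so that all worms were grown on RNAi bacteria. The sample labels also give, for every library, a collection of L4 or young adult worms following 2.5 days on RNAi, and the ages used here come from the sample titles. Whole animals hold germline, embryos and soma, so that fewer cells of a type and less RNA per cell cannot be told apart.

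Argonautes bind small RNAs and use them as guides to complementary transcripts. In the worm, primary Argonautes take up microRNAs, piRNAs or siRNAs cut by Dicer, and the transcripts they find can become templates for RNA-dependent RNA polymerases, whose products load the secondary, worm-specific Argonautes (WAGOs). Some WAGOs act in the cytoplasm or in perinuclear germ granules, and others carry their guides into the nucleus, where they act on chromatin and transcription. ALG-1 and ALG-2 are the microRNA Argonautes, RDE-1 starts the response to ingested double-stranded RNA, ERGO-1 binds endogenous siRNAs of oocytes and embryos, PRG-1 binds piRNAs, and CSR-1 binds siRNAs against transcripts of the germline.

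The values, deposited as normalized counts, were read as CPM (read counts scaled to library size), since the library sums lie between 916765 and 953972. They were taken as quantile-normalized across the libraries before deposition, since the 10th highest value is 3019 CPM in each of the 36 libraries. Read depth is unknown, and no value in the table is 0. Differences are given as log2FC of CPM + 1 with the SE and the Benjamini-Hochberg adjusted *P* of limma over 15713 genes tested, and a gene was called higher or lower at an absolute log2FC above 0.5 and an adjusted *P* below 0.05. The RNAi target *cco-1* (*cox-5B* in the annotation) had 57.1 to 192 CPM in *cco-1* RNAi libraries and 127 to 285 CPM in ev libraries, and it was called lower at each of the 6 ages, with log2FC between -1.57 and -0.57. The median SD within a group was wider in the *cco-1* RNAi groups of day 5, day 9 and day 11 (0.105, 0.119 and 0.115 on the log2 scale) than in the ev groups (0.073 to 0.083).

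Per kilobase of exon, averaged over the 36 libraries, *wago-1* had the highest level of the 10 (261 CPM per kb), followed by *hrde-1* (187), *prg-1* (163), *csr-1* (113) and *ergo-1* (94.3). Lower in this order were *ppw-1* (31 CPM per kb), *rde-1* (28.2), *alg-2* (22.7), *nrde-3* (14.7) and *alg-1* (12). Argonautes with germline functions were thus at the top, except *ppw-1*, a WAGO gene needed for feeding RNAi against germline genes, which stood next to *rde-1*. The microRNA Argonautes and *nrde-3*, a somatic Argonaute, were at the end. Summed over the 10 genes, the level was 2156 to 2201 CPM in *cco-1* RNAi worms and 2176 to 2178 CPM in ev worms at day 1. At day 3 the sum was below that of ev, with 2643 to 2869 CPM in *cco-1* RNAi worms, against 3118 to 3170 CPM in ev worms. At day 7 it was above it, with 3223 to 3336 CPM in *cco-1* RNAi worms, against 2755 to 2874 CPM in ev worms. The sums overlapped at days 5, 9 and 11, and at day 11 they were 3455 to 3682 CPM in *cco-1* RNAi worms and 3532 to 3715 CPM in ev worms.

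**Figure D1:**
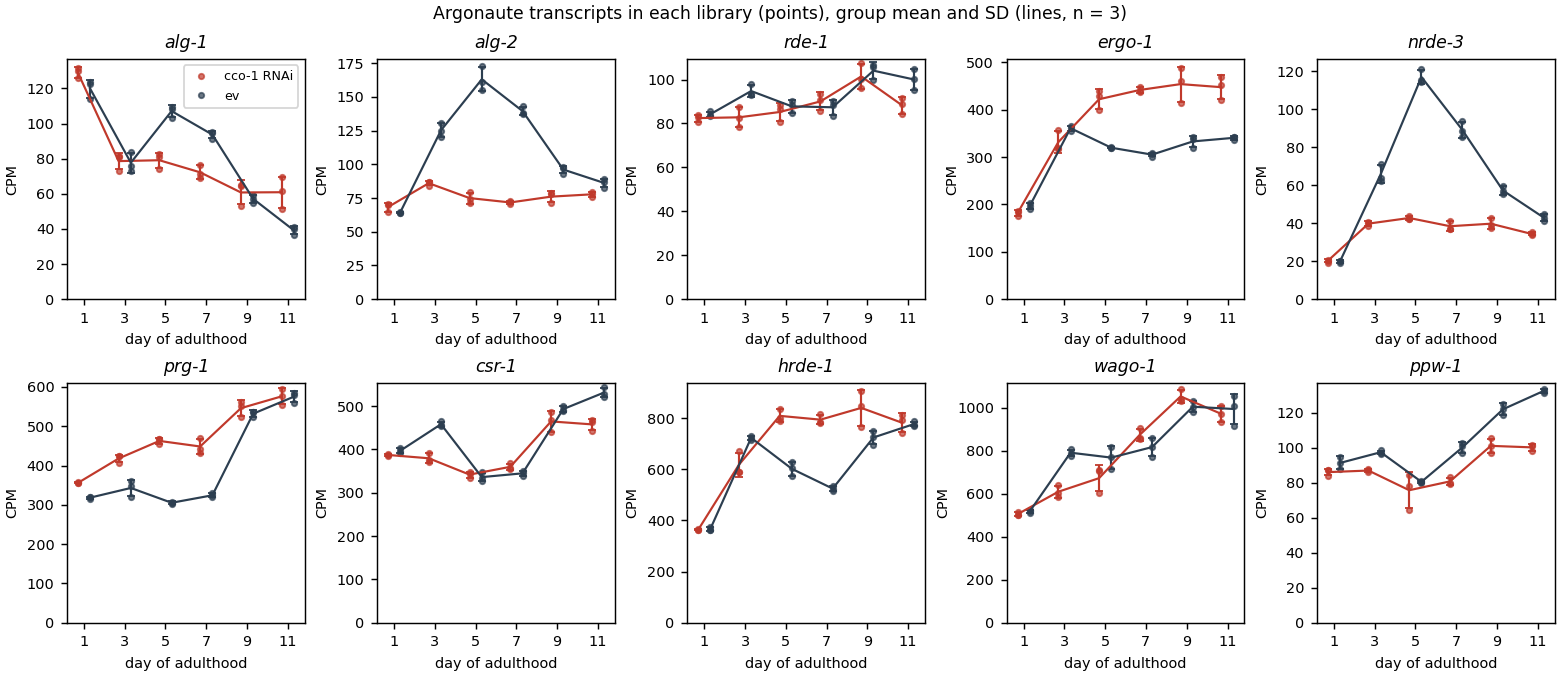
CPM of the 10 Argonaute genes (vertical axes, each from 0) against day of adulthood; points are libraries (red, *cco-1* RNAi; dark, ev) and lines join the group means with their SD (n = 3). The *cco-1* RNAi worms of days 3 to 7 stood below the ev worms for *nrde-3* and *alg-2*, and above them at days 5 and 7 for *ergo-1*, *prg-1* and *hrde-1*.

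Among the 10, the gene farthest from 0 in the comparison of *cco-1* RNAi with ev at days 3, 5, 7 and 9 was *nrde-3* (X, 372235 to 376900, + strand, WBcel235), which encodes the Argonaute that carries siRNAs into the nuclei of somatic cells. At day 1 it had 20.2, 19.2 and 20.8 CPM in *cco-1* RNAi worms and 20.2, 20.2 and 18.9 CPM in ev worms, and the ranges overlapped. At day 5 *nrde-3* had 42.3, 43.7 and 42.1 CPM in *cco-1* RNAi worms, against 114, 121 and 115 CPM in ev worms. The day 5 libraries of the groups lay far apart, and ev day 5 was the highest of the 12 groups for this gene, at 117 ± 3.75 CPM (SD, n = 3), which was 5.92 times the level of ev day 1.

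*nrde-3* rose after day 1 in both RNAi groups. In *cco-1* RNAi worms its log2FC against day 1 was 0.95 at day 3, 1.05 at day 5 (SE 0.057, adjusted *P* = 3.38e-19) and 0.74 at day 11. In ev worms it was 1.68 at day 3, 2.51 at day 5 (SE 0.057, adjusted *P* = 1.56e-31) and 1.08 at day 11. The *cco-1* RNAi worms thus held a nearly level plateau from day 3 to day 9, whereas the ev worms had a peak. The change from day 1 differed between *cco-1* RNAi and ev by -0.73 at day 3, -1.46 at day 5 (SE 0.081, adjusted *P* = 2.21e-17), -1.22 at day 7 and -0.54 at day 9, all called. The day 9 value of *nrde-3* fell just under the threshold, at -0.50, with a pseudocount of 5 CPM, with median of ratios scaling (each library scaled to the genes' means) and without *cco-1* day 9 replicate 3.

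Within days, *nrde-3* was lower in *cco-1* RNAi than in ev at day 3 (log2FC -0.71), day 5 (-1.43, SE 0.057, adjusted *P* = 3.41e-22), day 7 (-1.20) and day 9 (-0.52). The libraries of day 3 were at 38.5, 40.6 and 40.1 CPM with *cco-1* RNAi and at 62.0, 71.2 and 63.9 CPM with ev. Those of day 7 were at 37, 36.7 and 41.4 CPM with *cco-1* RNAi and at 93.5, 85.1 and 88.7 CPM with ev. At each age from day 3 on, all *cco-1* RNAi libraries were below all ev libraries. At day 9, with 38.9, 42.8 and 37.4 CPM in *cco-1* RNAi worms and 55.2, 59.4 and 56.8 CPM in ev worms, the value lay near the threshold. There the log2FC was -0.49 without ev day 9 replicate 2, -0.48 without *cco-1* day 9 replicate 3, and -0.46 with median of ratios scaling. By day 11 the difference of *nrde-3* was -0.31 and was not called, with 33.6, 35.1 and 34.3 CPM in *cco-1* RNAi worms and 44.8, 41.2 and 42.7 CPM in ev worms.

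*alg-2* (II, 873212 to 879885, + strand), which encodes a microRNA Argonaute, had a similar course at a higher level. It was at 70.6, 64.3 and 69.8 CPM in *cco-1* RNAi worms and at 64.8, 64 and 64 CPM in ev worms at day 1, with overlapping ranges. At day 5 it had 71.2, 79.3 and 74.3 CPM in *cco-1* RNAi worms, against 161, 173 and 155 CPM in ev worms. The 12 *cco-1* RNAi libraries of days 5 to 11 stayed between 70.7 and 79.4 CPM, whereas ev day 5 was the highest group, 2.53 times as high as ev day 1. In *cco-1* RNAi worms no age passed the threshold against day 1, with log2FC of 0.33 at day 3 and 0.07 to 0.19 at the later ages. In ev worms *alg-2* rose against day 1 at day 3 (log2FC 0.95), day 5 (1.33, SE 0.048, adjusted *P* = 3.66e-25), day 7 and day 9 (0.57), and its log2FC at day 11 was 0.42. With median of ratios scaling the day 9 value of ev worms was 0.34, under the threshold. The difference between these changes was called at day 3 (-0.62), day 5 (-1.19, SE 0.067, adjusted *P* = 3.56e-17) and day 7 (-1.03).

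Against ev of the same age, *alg-2* was lower with *cco-1* RNAi at day 3 (log2FC -0.54), day 5 (-1.11, SE 0.048, adjusted *P* = 3.03e-21) and day 7 (-0.95). The day 3 libraries had 87.0, 86.9 and 84.1 CPM with *cco-1* RNAi and 120.2, 131 and 125 CPM with ev. The day 7 libraries had 70.7, 72.5 and 71.9 CPM with *cco-1* RNAi and 137, 143 and 138 CPM with ev. The groups did not overlap at any age from day 3 on, although the log2FC of day 9 (-0.34) and day 11 (-0.15) was under the threshold. With median of ratios scaling the day 3 value of *alg-2* was -0.50, just under it. In the order of the 12 groups, ev days 5, 7, 3 and 9 of *alg-2* stood at the top, each apart from the next in its libraries. Below them *cco-1* day 11, day 9, day 5 and day 7 followed each other with overlapping ranges.

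*alg-1* (X, 13949110 to 13956261, + strand) encodes the other microRNA Argonaute, and its level was highest in the youngest worms. It had 126, 129.9 and 131 CPM in *cco-1* RNAi worms and 122, 114 and 123 CPM in ev worms at day 1. At day 11 it fell to 69.3, 51.6 and 61.8 CPM in *cco-1* RNAi worms, and to 40.0, 40.8 and 36.6 CPM in ev worms. The log2FC of day 11 against day 1 was -1.08 in *cco-1* RNAi worms (SE 0.075, adjusted *P* = 1.63e-15) and -1.59 in ev worms (SE 0.075, adjusted *P* = 1.56e-20).

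Between these ages the decline of *alg-1* took a different form in the groups. In *cco-1* RNAi worms it had 80.8, 81.8 and 73.2 CPM at day 3 and 80.7, 74.2 and 82.5 CPM at day 5, a step of 0.01 on the log2 scale. In ev worms it had 73.0, 84.1 and 76.0 CPM at day 3 and 103, 108 and 109.6 CPM at day 5, a step of 0.46 that was not called although no libraries of the ages overlapped. The ev worms thus had a second, lower maximum at day 5, the age at which their *alg-2* and *nrde-3* were highest.

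The sign of the difference of *alg-1* between *cco-1* RNAi and ev changed over adulthood. The log2FC was 0.11 at day 1, without overlap of the libraries, and 0.02 at day 3, with overlap, and neither was called. It was -0.43 at day 5 and -0.37 at day 7, both under the threshold with library ranges that did not overlap, 0.08 at day 9 with overlap, and 0.62 at day 11 (SE 0.075, adjusted *P* = 1.08e-08), where *alg-1* was called higher. The difference between the age changes was called at day 5 (-0.54, SE 0.11) and at day 11 (0.51, SE 0.11), both near the threshold, and was -0.48 at day 7, where it was -0.52 without *cco-1* day 7 replicate 2 or with median of ratios scaling. Without *cco-1* day 5 replicate 2 the day 5 value of *alg-1* was -0.49. The day 11 value lost its call without any of 6 libraries (ev day 1 replicates 1 and 3, ev day 11 replicate 3, *cco-1* day 1 replicate 1, and *cco-1* day 11 replicates 1 and 3), the lowest being 0.41 without *cco-1* day 11 replicate 1. Body wall muscle genes were higher at day 11, as *alg-1* was: 9 of 9 were called with *cco-1* RNAi (median log2FC 1.81), beside 15.1% of all genes. Their sum was 991 to 1677 CPM in *cco-1* RNAi worms and 355 to 403 CPM in ev worms, none at 0. In both RNAi groups these 9 genes fell from day 1, by a median of -2.97 with *cco-1* RNAi and -4.99 with ev, and the part of muscle in the result for *alg-1* was not tested. At days 5 and 7, where the log2FC of *alg-1* was below 0, 7 of the 9 muscle genes were higher with *cco-1* RNAi (median 1.05 and 0.64) and none was lower. Of all genes, 16.7% were higher at day 5 and 11.6% at day 7. Other tissue lists were higher at day 11 too, with 7 of 9 intestine genes (median 0.92) and 3 of 5 pharynx genes (median 0.88) called, beside the same 15.1% of all genes. Of the exon bases of *alg-1*, 96 are shared with a small nucleolar RNA gene on the same strand, and since the authors counted uniquely mapped reads, stretches in which *alg-1* and *alg-2* are alike would be counted for neither.

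The ratio of *alg-2* to *alg-1* within a library combines these courses. At day 1 it was 0.561, 0.495 and 0.531 in *cco-1* RNAi worms and 0.530, 0.561 and 0.519 in ev worms. At day 5 it was 0.882, 1.07 and 0.900 in *cco-1* RNAi worms, against 1.56, 1.59 and 1.42 in ev worms. At day 11 it was 1.09, 1.51 and 1.28 with *cco-1* RNAi, against 2.06, 2.18 and 2.38 with ev. The 2 microRNA Argonautes thus changed places in both groups, with *alg-1* ahead at day 1, and *alg-2* was ahead by more in ev worms. The log2 ratio with *cco-1* RNAi minus that with ev was -0.56, -0.68, -0.58, -0.42 and -0.78 at days 3, 5, 7, 9 and 11, with no overlap between the libraries (exact two-sided permutation test, *P* = 0.1 at each of these ages, the smallest that 3 against 3 can give; 0.129 adjusted over 18 ratio tests). At day 1 the ratios overlapped (difference of log2 ratio -0.02, exact *P* = 0.9).

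**Figure D2:**
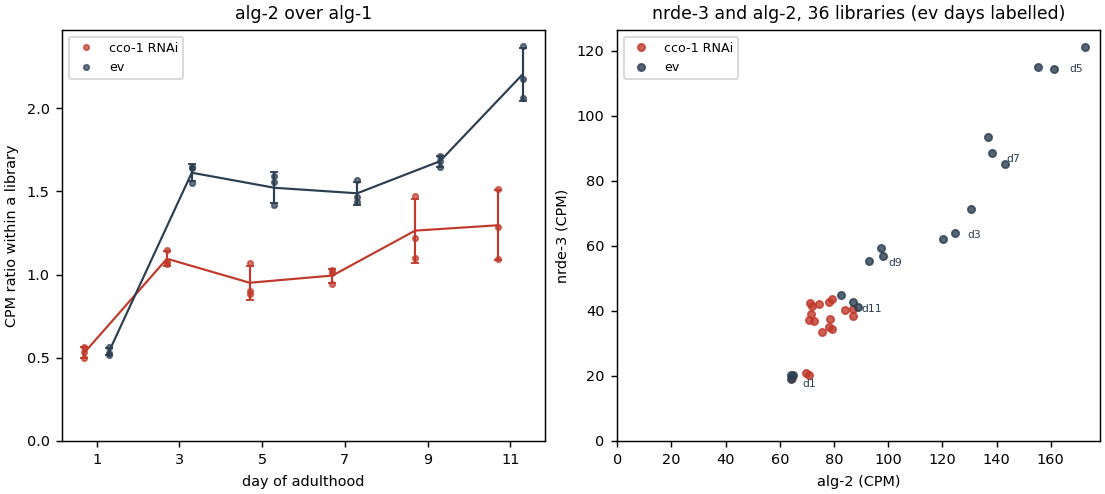
Left, the CPM ratio of *alg-2* to *alg-1* within each library (vertical axis, from 0) against day of adulthood, with the group means and SD (n = 3). Right, *nrde-3* against *alg-2* in CPM in the 36 libraries (red, *cco-1* RNAi; dark, ev, with the days of the ev groups marked): the *cco-1* RNAi libraries reach at most 43.7 CPM of *nrde-3* and 87.0 CPM of *alg-2*, and the ev libraries spread along a line up to those of day 5.

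Some markers of embryos were lower with *cco-1* RNAi at days 3, 5 and 7, as *nrde-3* and *alg-2* were, and some were lower at days 9 and 11 too. Of 9 early embryo genes tested, 5 were lower with *cco-1* RNAi at day 3 (median log2FC of the list -0.59), 5 at day 5 (-0.51) and 3 at day 7 (-0.19), and none was higher, beside 7.92%, 16.6% and 13.0% of all genes called lower. Against day 1, 8 of the 9 rose by day 5 in *cco-1* RNAi worms (median 0.67; 30.1% of all genes), and 7 rose in ev worms (median 1.26; 31.6% of all genes). The log2FC of *alg-2* in *cco-1* RNAi worms was 0.13 in that comparison and was not called. The GATA factor gene *elt-1*, needed for the epidermis of the embryo, had a log2FC of -1.04 with *cco-1* RNAi over ev at day 5, and *sdz-28*, a target of the maternal factor SKN-1, one of -1.65. Maternally supplied *skn-1* and *pal-1*, the genes of the list with the highest means, had log2FC of -0.01 and 0.11 in that comparison. At day 9 *sdz-28* (-1.37) and *vet-2*, another gene of the list (-0.71), were called lower with *cco-1* RNAi. At day 11 *vet-2* (-0.78) and *elt-1* (-0.64) were called lower, and *skn-1* and *pal-1* were called at neither age. *alg-2* was not called at these 2 ages, and *nrde-3* was called at day 9 alone. The summed level of the list was 674 to 686 CPM in *cco-1* RNAi worms and 708 to 719 CPM in ev worms at day 5, and no member was at 0, although *hlh-27* did not pass the filter on low values. In ev worms of day 11 the summed level of the list was 726 to 746 CPM, whereas *nrde-3* and *alg-2* had fallen from day 5 to means of 42.9 and 86.2 CPM. That sum is held mainly by *skn-1*, *pal-1* and *pie-1* (means over the 36 libraries of 347, 126 and 126 CPM), and single genes of the list differed. In ev worms against day 1, *vet-2* had a log2FC of 2.36 at day 5 and 1.30 at day 11. *pal-1* had 0.63 and 0.49 at these ages, and *skn-1* had 0.49 and 0.66. The part of embryos held in the worms in the result for *nrde-3* and *alg-2* was not tested.

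*rde-1* (V, 9987916 to 9991642, − strand), without which worms do not respond to ingested double-stranded RNA, had the narrowest range of the 10 genes. Its group means lay between 82.4 ± 1.56 CPM (*cco-1* RNAi, day 1) and 104.04 ± 3.79 CPM (ev, day 9; SD, n = 3 each), a factor of 1.26. When the 12 groups were put in order of their means, each of the 11 pairs of neighbours overlapped. Between *cco-1* RNAi and ev the log2FC of *rde-1* was -0.03, -0.19, -0.04, 0.04, -0.04 and -0.18 from day 1 to day 11, none of them called. At day 3 it had 78.6, 87.5 and 82.3 CPM in *cco-1* RNAi worms, against 92.8, 97.9 and 93.5 CPM in ev worms, without overlap. At day 11 it had 84.1, 91.7 and 89 CPM in *cco-1* RNAi worms, against 105, 95.1 and 100.2 CPM in ev worms, also without overlap. Over the 6 ages, the 95% intervals of the log2FC of *rde-1* reached no lower than -0.29, at day 3, and no higher than 0.14, at day 7.

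*ergo-1* (V, 1008803 to 1018352, + strand) rose after day 1 in both RNAi groups and rose further with *cco-1* RNAi. Day 1 libraries had 187, 175 and 184 CPM with *cco-1* RNAi and 191, 197 and 203 CPM with ev. At day 3 it had 317, 358 and 319.8 CPM with *cco-1* RNAi and 362, 366 and 356 CPM with ev, with overlap. At day 7 *ergo-1* had 449, 437 and 439 CPM in *cco-1* RNAi worms, against 306, 301 and 309 CPM in ev worms. From day 5 on all *cco-1* RNAi libraries were above all ev libraries of the same age, with log2FC of 0.40, 0.53, 0.44 and 0.39 at days 5, 7, 9 and 11, of which that of day 7 was called (SE 0.048, adjusted *P* = 5.12e-12). At day 9 it was 0.51 without *cco-1* day 9 replicate 1 and 0.50 with median of ratios scaling, past the threshold in both cases. The log2FC of day 11 against day 1 was 1.30 in *cco-1* RNAi worms (SE 0.048, adjusted *P* = 1.4e-24) and 0.79 in ev worms (SE 0.048, adjusted *P* = 5.65e-18).

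The rise of *ergo-1* from day 1 differed between *cco-1* RNAi and ev by 0.51 at day 5, 0.65 at day 7 (SE 0.068, adjusted *P* = 4.55e-10), 0.56 at day 9 and 0.51 at day 11, all called. The values of days 7 and 9 kept their call in every alternative with a threshold of 0.5, whereas those of days 5 and 11 lay at the threshold. The day 5 value was 0.49 without ev day 1 replicate 3, *cco-1* day 1 replicate 2 or *cco-1* day 5 replicate 3, and 0.47 with median of ratios scaling. The day 11 value lost its call without ev day 1 replicate 3, ev day 11 replicate 1, *cco-1* day 1 replicate 2, or *cco-1* day 11 replicate 2 or 3, at 0.47 to 0.50. Relative to *rde-1*, the primary Argonaute of the exogenous pathway, *ergo-1* stood at 4.85, 4.94 and 5.08 in *cco-1* RNAi worms of day 5 and at 3.55, 3.79 and 3.61 in ev worms of day 5, without overlap. This ratio did not overlap between the groups from day 5 on (difference of log2 ratio 0.44 to 0.57, exact two-sided permutation *P* = 0.1 at each age).

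Some oocyte genes were higher with *cco-1* RNAi from day 7 on, ages at which all *ergo-1* libraries were above ev too. Of 16 genes of oocytes and the eggshell, none was called at day 5, and 3, 6 and 7 were higher with *cco-1* RNAi at days 7, 9 and 11, with none lower, beside 11.6%, 9.44% and 15.1% of all genes called higher. Their sum at day 7 was 13283 to 13650 CPM in *cco-1* RNAi worms and 11614 to 11881 CPM in ev worms, and at day 11 it was 12661 to 12764 CPM in *cco-1* RNAi worms and 8430 to 8633 CPM in ev worms. In ev worms the oocyte sum had been 13474 to 13752 CPM at day 3, whereas *ergo-1* had means of 361 CPM at day 3 and 341 CPM at day 11. The part of oocytes in the result for *ergo-1* was not tested.

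*prg-1* (I, 7585329 to 7588367, − strand), the piRNA-binding Argonaute gene, was the only member with an adjusted *P* below 0.05 at day 1. It had 355, 355 and 357 CPM in *cco-1* RNAi worms, against 320.0, 316 and 319 CPM in ev worms, a log2FC of 0.16 (SE 0.038, adjusted *P* = 0.0012) that was under the threshold for a call. At day 5 it had 454, 467 and 467 CPM in *cco-1* RNAi worms, against 302, 308 and 306 CPM in ev worms, and was called higher (log2FC 0.60, SE 0.038, adjusted *P* = 2.56e-16). At day 7 it had 443, 432 and 469.8 CPM in *cco-1* RNAi worms, against 329, 325 and 319 CPM in ev worms (log2FC 0.47). The *prg-1* libraries were apart from day 1 to day 7 and overlapped at days 9 and 11, where the log2FC was 0.04 and 0.00.

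The groups reached this late level of *prg-1* by different courses. *cco-1* RNAi worms came to it in small steps, none of them called, and had 524, 552 and 562 CPM at day 9. Ev worms stayed between 302 and 360.3 CPM up to day 7 and had 537, 537 and 522 CPM at day 9, a step of 0.71 from day 7 that was called. The rise against day 1 was called at day 9 and day 11 in both, at 0.62 and 0.69 with *cco-1* RNAi and at 0.74 and 0.85 with ev, although the day 9 value with *cco-1* RNAi was 0.42 with median of ratios scaling. The changes of *prg-1* from day 1 differed between *cco-1* RNAi and ev by 0.44 at day 5 and by -0.16 at day 11, and no age was called.

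*csr-1* (IV, 7957267 to 7962157, + strand), which encodes an essential Argonaute whose guides match germline-expressed genes, was called neither against ev nor against day 1 at any age. Its level dipped in mid-adulthood in both RNAi groups. At day 3 it had 371, 393 and 376 CPM in *cco-1* RNAi worms, against 465, 456 and 454 CPM in ev worms (log2FC -0.27, SE 0.035). At day 5 it had 348, 334 and 343 CPM in *cco-1* RNAi worms and 335, 327 and 347 CPM in ev worms, with overlapping ranges. At day 11 it had 443, 467 and 464 CPM in *cco-1* RNAi worms, against 543, 522 and 529 CPM in ev worms, a log2FC of -0.21 with no overlap. For ev worms the step from day 7 to day 9 was called, at 0.51. Of the exon bases of *csr-1*, 11.9% are shared with *frpr-10* on the same strand.

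*hrde-1* (III, 4172337 to 4176159, − strand), the gene of the nuclear Argonaute that maintains heritable silencing in the germline, rose early and differed between the groups in the middle of the series. At day 1 it had 365, 362 and 362 CPM with *cco-1* RNAi and 374, 364 and 362 CPM with ev. At day 3 it had 591, 671 and 591 CPM in *cco-1* RNAi worms and 731, 724 and 714 CPM in ev worms, a log2FC of -0.23 without overlap. The order then turned. At day 5 the libraries had 799, 791 and 837 CPM with *cco-1* RNAi, against 604, 574 and 627 CPM with ev, a log2FC of 0.43 without overlap and without a call. At day 7 they had 815, 782 and 786 CPM with *cco-1* RNAi, against 533, 517 and 524 CPM with ev, and *hrde-1* was called higher (log2FC 0.60, SE 0.047, adjusted *P* = 1.12e-13). The change of *hrde-1* from day 1 to day 7 differed between *cco-1* RNAi and ev by 0.61 (SE 0.066, adjusted *P* = 9.09e-10), and no other age was called. By day 11 the groups overlapped, at 741, 795 and 811 CPM with *cco-1* RNAi and 788, 770.1 and 773 CPM with ev. The rise of *hrde-1* against day 1 was 1.104 on the log2 scale with *cco-1* RNAi and 1.08 with ev at day 11, both called.

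Of 20 germline markers, 2 were called higher with *cco-1* RNAi at day 7 and none lower, beside 11.6% and 13.0% of all genes, and the median log2FC of the list was 0.02. Their sum was 4951 to 5134 CPM with *cco-1* RNAi and 4426 to 4481 CPM with ev at day 7, with no member at 0, and their part in the result for *hrde-1* was not tested. Set beside its somatic counterpart *nrde-3*, *hrde-1* differed in the other direction between the groups at days 5, 7 and 9, whereas at day 3 both had log2FC below 0. The ratio of *nrde-3* to *hrde-1* was 0.0530, 0.0552 and 0.0503 in *cco-1* RNAi worms of day 5, against 0.189, 0.211 and 0.184 in ev worms, a difference of log2 ratio of -1.88 (exact two-sided permutation *P* = 0.1, the smallest possible). At day 1 the ratios of the groups overlapped, and from day 3 on they did not.

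*wago-1* (I, 7235384 to 7238792, + strand), whose product is a WAGO of germ granules, was called in no comparison of *cco-1* RNAi with ev. It had 586, 639.5 and 604 CPM in *cco-1* RNAi worms of day 3, against 807, 777 and 791 CPM in ev worms of day 3, a log2FC of -0.38. From day 7 to day 11 the differences were 0.10, 0.07 and -0.03. The rise with age was called in *cco-1* RNAi worms from day 7 on (0.79 at day 7, 0.94 at day 11, SE 0.053) and in ev worms from day 3 on (0.61 at day 3, 0.94 at day 11, SE 0.053). With median of ratios scaling the *wago-1* values of ev worms at days 3 and 5 were 0.47 and 0.46, under the threshold. At day 9 *wago-1* had its highest levels, with 1032, 1088 and 1041 CPM in *cco-1* RNAi worms and 1032, 983 and 1002 CPM in ev worms, and the groups overlapped.

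*ppw-1* (I, 4185174 to 4189956, + strand), a WAGO gene needed for feeding RNAi against germline genes, was below ev with *cco-1* RNAi at day 11 without passing the threshold. It had 98.0, 101 and 102 CPM in *cco-1* RNAi worms, against 133, 134 and 131 CPM in ev worms (log2FC -0.40, SE 0.054, adjusted *P* = 5.14e-08). At day 7 it had 83.0, 79.9 and 79.4 CPM in *cco-1* RNAi worms, against 103, 96.8 and 101 CPM in ev worms (log2FC -0.31). All *cco-1* RNAi libraries were below all ev libraries at days 1, 3 and 9 too (log2FC -0.08, -0.16 and -0.27), and the ranges overlapped at day 5 (-0.10). The log2FC of day 11 against day 1 was 0.22 in *cco-1* RNAi worms and 0.53 in ev worms (SE 0.054, adjusted *P* = 1.13e-11), with a difference of -0.32 that was not called. The call in ev worms depended on the scaling, since the value was 0.27 with median of ratios scaling. At day 5, replicate 2 of the *cco-1* RNAi worms had 64.5 CPM of *ppw-1*, beside 84.3 and 78.3 CPM in the other libraries of the group.

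**Figure D3:**
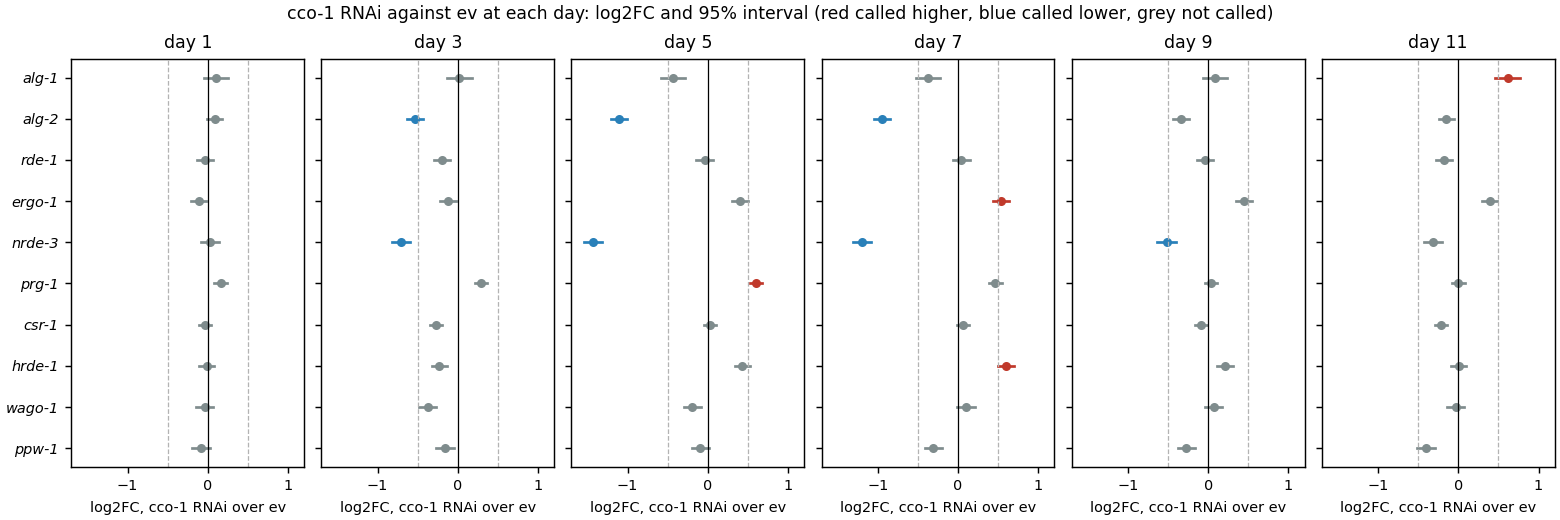
log2FC of *cco-1* RNAi over ev (horizontal axes) for the 10 Argonautes, with 95% intervals, in 1 panel per day; dashed lines mark an absolute log2FC of 0.5. Called lower (blue) were *nrde-3* at days 3 to 9 and *alg-2* at days 3 to 7, and called higher (red) were *prg-1* at day 5, *ergo-1* and *hrde-1* at day 7 and *alg-1* at day 11.

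Counted over the 10 genes, none was called at day 1 in either direction, where 4.63% of all genes tested were called higher and 4.46% lower with *cco-1* RNAi; the unadjusted limma *P* was below 0.05 for 2 of them. At day 3 none was called higher (background 9.36%) and 2 were lower (7.92%), with 9 of the 10 at an unadjusted *P* below 0.05. Day 5 had 1 higher (16.7%) and 2 lower (16.6%), and day 7 had 2 higher (11.6%) and 2 lower (13.0%). At day 9 none was higher (9.44%) and 1 was lower (8.69%), with 5 uncalled genes at an unadjusted *P* below 0.05. At day 11 there was 1 higher (15.1%) and none was lower (13.3%), with 6 uncalled genes at an unadjusted *P* below 0.05. With 10 genes, each count of 1 or 2 is close to the share of all genes. The median log2FC of the 10 lay between -0.21 (day 3) and 0.05 (day 7), beside -0.01 and 0.04 for all genes. The library ranges of *cco-1* RNAi and ev did not overlap for 49.1% to 70.4% of all genes, depending on the day, so that a lack of overlap is common in this series. With median of ratios scaling, 67.2% of all genes called at day 11 were higher, beside 53.1% with the values as deposited.

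With age, 3 Argonautes rose and 1 fell in *cco-1* RNAi worms by day 3 (background 24.6% and 19.6%), and 5 rose and 1 fell in ev worms (28.7% and 23.6%). By day 5, *cco-1* RNAi worms had 3 higher (30.1%) and 1 lower (23.1%), and ev worms had 5 higher (31.6%) and none lower (26.8%), with 3 uncalled genes at an unadjusted limma *P* below 0.05. By day 11, 5 of the 10 were higher in *cco-1* RNAi worms (34.1%) and 1 was lower (23.7%), and 6 were higher in ev worms (41.8%) and 1 was lower (27.4%). *hrde-1*, *ergo-1*, *wago-1*, *prg-1* and *nrde-3* were higher at day 11 in both, and *alg-1* was lower in both. The median log2FC of the 10 at day 11 was 0.47 in *cco-1* RNAi worms and 0.66 in ev worms, and that of all genes 0.18 with *cco-1* RNAi and 0.31 with ev.

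The scaling of the libraries bore on the age changes. Median of ratios scaling lowered the all-gene medians of the day 11 changes by 0.19 with *cco-1* RNAi and by 0.27 with ev. At day 11 the share of higher genes among those called was then 46.4% in *cco-1* RNAi worms and 47.5% in ev worms, beside 59.0% and 60.4% as deposited. It was 44.6% in *cco-1* RNAi worms and 44.1% in ev worms at day 3, beside 55.7% and 54.9% as deposited, and 45.5% in *cco-1* RNAi worms at day 5, beside 56.6%. Among the Argonautes this scaling left the day 11 count of higher genes at 5 in *cco-1* RNAi worms and at 5 in place of 6 in ev worms, where *ppw-1* was lost. The rises of *hrde-1*, *ergo-1*, *wago-1*, *prg-1* and *nrde-3* to day 11 passed the threshold in both groups under this scaling too.

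**Figure D4:**
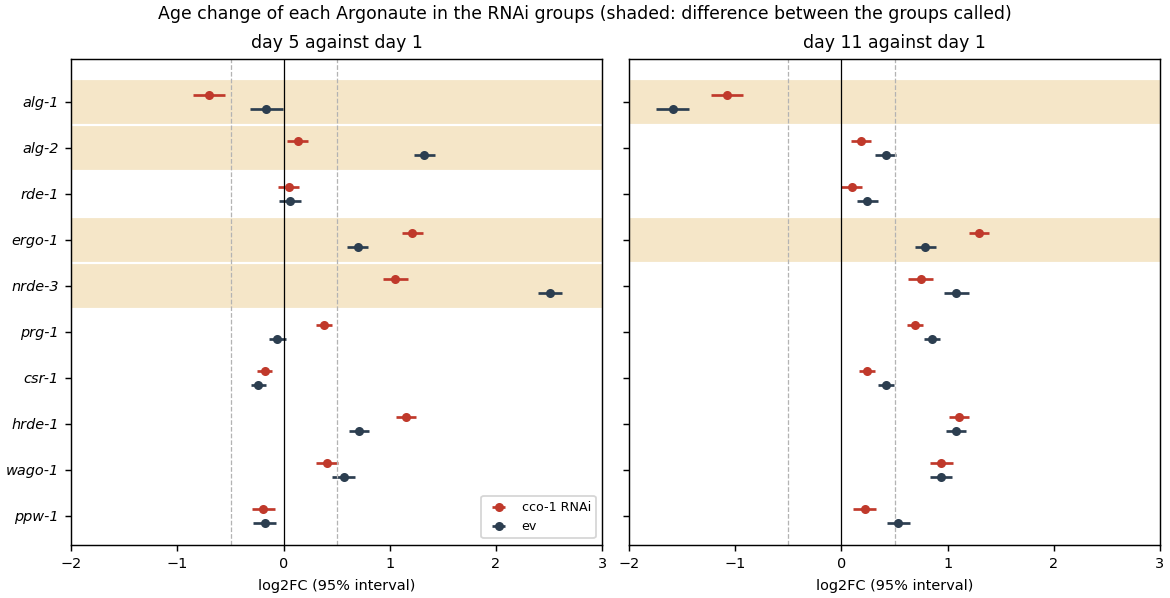
log2FC of day 5 (left) and day 11 (right) against day 1 for the 10 Argonautes, with 95% intervals (red, *cco-1* RNAi; dark, ev; dashed lines at an absolute log2FC of 0.5). Shaded genes are those whose age change was called different between *cco-1* RNAi and ev: *alg-1*, *alg-2*, *ergo-1* and *nrde-3* at day 5, *alg-1* and *ergo-1* at day 11.

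The age changes in *cco-1* RNAi minus those in ev were called lower to day 3 for 2 of the 10 (*alg-2* and *nrde-3*; 7.69% of all genes) and higher for none (8.58%), with 5 uncalled genes at an unadjusted limma *P* below 0.05. Those to day 5 were called different between *cco-1* RNAi and ev for 1 Argonaute in the higher direction (*ergo-1*; 17.5% of all genes) and 3 in the lower direction (*alg-1*, *alg-2* and *nrde-3*; 17.0%). Those to day 7 were called higher for 2 (*ergo-1* and *hrde-1*; 13.9%) and lower for 2 (*alg-2* and *nrde-3*; 14.6%), and those to day 9 higher for 1 (*ergo-1*; 12.8%) and lower for 1 (*nrde-3*; 12.6%). Those to day 11 were called higher for 2 (*alg-1* and *ergo-1*; 17.2%) and lower for none (18.1%), with 6 uncalled genes at an unadjusted limma *P* below 0.05. The comparisons of each later age with day 1 share the day 1 libraries, and the differences of age changes share libraries with the comparisons within days.

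Across the 12 group means of log2(CPM + 1), which come from 1 quantile-normalized table, the members fell into sets of similar course. Pearson's r was 0.94 between *alg-2* and *nrde-3* and 0.96 between *ergo-1* and *hrde-1*, and *alg-1* ran against *prg-1* (-0.87), *wago-1* (-0.82) and *hrde-1* (-0.80). These values describe 12 points. Of all tested genes whose mean was 10 CPM or more (8083 genes), the one with the course most like that of *nrde-3* was *nhr-25*, which encodes a nuclear hormone receptor (r = 0.99). For *alg-2* it was *pha-4*, the FoxA gene of pharynx development (r = 0.97). The closest to *alg-1* was *egl-44*, a TEAD factor gene (r = 0.98), and the closest to *hrde-1* was *fan-1*, a nuclease gene of DNA repair (r = 0.99). For *csr-1* the closest was *crh-1* (r = 0.96), and *gld-2*, which encodes a cytoplasmic poly(A) polymerase of the germline, was at rank 2 (r = 0.96). For *rde-1* the closest was *C14C10.5* (r = 0.94), and *drh-3*, a Dicer-related helicase gene, was at rank 3 (r = 0.94).

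Other genes of the small RNA pathways were set beside the members. Of 13 other Argonaute genes tested, 4 were higher and 4 lower in *cco-1* RNAi worms at day 11 against day 1, and 2 were higher and 4 lower in ev worms. Of all genes, 34.1% were higher and 23.7% lower in *cco-1* RNAi worms in that comparison, and 41.8% were higher and 27.4% lower in ev worms. *alg-3* and *alg-4*, the Argonautes of sperm-producing germ cells, were higher with *cco-1* RNAi at day 5 (log2FC 1.33 and 1.31). Their log2FC against day 1 at that age was -2.55 and -2.56 with *cco-1* RNAi and -3.73 and -3.72 with ev. Sperm markers moved with *alg-3* and *alg-4*: of 13, 11 were higher with *cco-1* RNAi at day 5 (16.7% of all genes), with a sum of 156 to 166 CPM in *cco-1* RNAi worms and 62.6 to 67.1 CPM in ev worms, and the part of sperm in the result was not tested. *sago-1*, a secondary Argonaute gene, was higher with *cco-1* RNAi at day 11 (1.02), and *ppw-2* was lower (-0.60).

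Partners of *alg-1* and *alg-2* were in the list of microRNA biogenesis and effector complexes. Of its 12 genes tested, none was higher and 3 were lower with *cco-1* RNAi at day 5 (median -0.13), beside 16.6% of all genes called lower. *ain-1* and *ain-2*, the GW182 family genes whose products bind the microRNA Argonautes, had log2FC of -1.16 and -0.63, in the direction of *alg-2*. At day 5 against day 1, *ain-1* had a log2FC of 0.13 with *cco-1* RNAi and 1.22 with ev, and *ain-2* of 0.32 with *cco-1* RNAi and 0.93 with ev. *pab-1* (poly(A) binding protein) and *cgh-1* (an RNA helicase of germ granules), the genes of the list with the highest means, had log2FC of 0.00 and -0.03 at day 5 with *cco-1* RNAi over ev.

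RNA-dependent RNA polymerases and the Mutator proteins make the guides of the WAGOs. Of 16 such genes, 10 were higher at day 11 against day 1 in *cco-1* RNAi worms (median 0.65; 34.1% of all genes) and 14 in ev worms (median 0.84; 41.8% of all genes), and none was lower. *nyn-1*, which encodes a nuclease domain protein, was at 1.88 with *cco-1* RNAi and 2.28 with ev, and *rde-12*, an RNA helicase gene, at 0.15 with *cco-1* RNAi and 0.59 with ev. At day 11 with *cco-1* RNAi over ev none of the 16 was higher and 2 were lower, which is close to the 13.3% of all genes called lower. These were *ego-1* (-0.57), the germline RNA-dependent RNA polymerase, and *mut-7* (-0.52). Of 13 genes of Dicer and the ERI complex, in which the guides of ERGO-1 are made, 6 were higher at day 11 against day 1 in *cco-1* RNAi worms and none was lower, and 7 were higher and 1 lower in ev worms, beside 34.1% of all genes higher with *cco-1* RNAi and 41.8% with ev. Dicer itself (*dcr-1*) was lower at day 11 with *cco-1* RNAi over ev (log2FC -0.68), and *eri-9* was higher at days 5 and 7 (0.61 and 0.56).

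In the piRNA list, whose genes act before or with *prg-1*, 13 of 20 were higher at day 11 against day 1 in *cco-1* RNAi worms (median 0.69) and 17 in ev worms (median 0.77), and none was lower, beside the same shares of all genes higher. *tofu-4*, *prde-1* and *snpc-4*, whose products act together at piRNA genes, were higher in both, with *snpc-4* at 0.74 with *cco-1* RNAi and 1.12 with ev. Of 13 genes of nuclear RNAi and chromatin, 8 were higher and 1 lower at day 11 against day 1 with *cco-1* RNAi (median 0.52), and 10 were higher and none lower with ev (median 1.00). The shares of all genes were 34.1% higher and 23.7% lower with *cco-1* RNAi, and 41.8% higher and 27.4% lower with ev. The gene that was lower with *cco-1* RNAi was *nrde-2* (-0.56), whose product acts with NRDE-3 and HRDE-1, and its log2FC with ev was 0.25. At day 11 with *cco-1* RNAi over ev 4 of the list were lower (13.3% of all genes), among them the histone methyltransferase genes *set-25* (-0.94) and *met-2* (-0.72).

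Germline markers rose with age beside *hrde-1*, *wago-1* and *prg-1*. Of 20 such genes, 12 were higher at day 11 against day 1 in *cco-1* RNAi worms (median 0.70; 34.1% of all genes) and 13 in ev worms (median 0.83; 41.8% of all genes), with none lower. Their sum in *cco-1* RNAi worms was 5310 to 5824 CPM at day 11 and 3467 to 3502 CPM at day 1, and in ev worms it was 5656 to 5739 CPM at day 11 and 3627 to 3663 CPM at day 1. The part of the germline in the age changes of these Argonautes was not tested.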

How the data were processed

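RNA of whole worms was sequenced after polyA selection on the BGISEQ-500 platform. By the study's methods, reads were mapped to WBcel235 with STAR, and uniquely mapped reads were counted over exons, without strand, with htseq-count. STAR 2.73a and edgeR 3.24.3 are listed in the submitters' processing notes. The table deposited by the authors holds CPM values, quantile-normalized before deposition. Columns of log2 fold changes, P values (p-values) and enrichment scores from the authors' own comparisons were not used.

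Libraries were grouped by RNAi and age from the sample titles. For genes reaching 1 CPM in 3 or more libraries (15713), log2(CPM + 1) was modelled in limma 3.58.1 with 1 coefficient per group (R 4.3.3, statmod 1.5.0; trended, robust variances, 24 residual degrees of freedom). Adding 1 CPM makes the changes of low genes smaller. The fit was tested on simulated data. A count-based test could not be run, since the values are not counts.

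The 10 members and the gene lists were chosen with earlier results of these data known. Of each list, the 2 genes with the largest change among those called and the 2 with the highest mean could be named, and of the genes most like each member the first 3. Of 193 list genes, 187 were found. Positions come from a WBcel235 annotation. Ratios were compared with exact permutation tests (scipy 1.17.1), and Python 3.11.15 with matplotlib 3.10.9 made the figures. Alternatives were other pseudocounts, filters, thresholds and variance models, replicate number as a block, other scalings and each library left out. Median of ratios scaling was added after seeing the data.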

Additional observations from a re-analysis of the deposited data

Results flagged for a closer look

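The change from day 1 differed between *cco-1* RNAi and ev worms by the limma test of the difference itself for 14 results. The log2 change with *cco-1* RNAi minus that with ev was -0.73 to day 3, -1.46 to day 5, -1.22 to day 7 and -0.54 to day 9 for *nrde-3*, and -0.62 to day 3, -1.19 to day 5 and -1.03 to day 7 for *alg-2*. It was 0.51 to day 5, 0.65 to day 7, 0.56 to day 9 and 0.51 to day 11 for *ergo-1*, and 0.61 to day 7 for *hrde-1*. For *alg-1* it was -0.54 to day 5 and 0.51 to day 11. Those of *alg-1*, of *ergo-1* to days 5 and 11 and of *nrde-3* to day 9 lay near the threshold, and leaving out 1 library could take each of them below it.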

How the results depend on the processing

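No log2FC of an Argonaute changed sign in a called comparison. Leaving out each library in turn, 1540 values kept their side of the threshold, 18 fell below it and 2 passed it; under the other alternatives 2085 kept it, 13 fell below it and 2 passed it. The counts over libraries left out were 0 to 1 higher and 0 to 1 lower with *cco-1* RNAi over ev at day 9, 0 to 1 higher for the difference of age changes to day 5, 0 to 1 lower for that to day 9, and 0 to 2 higher for that to day 11. With a pseudocount of 5 CPM, 0 were lower at day 9 (*nrde-3* at -0.48), 0 were lower for the difference of age changes to day 9 (*nrde-3* at -0.50) and 1 was higher for that to day 11 (*alg-1* at 0.47). With median of ratios scaling 1 was lower at day 3, 1 was higher and 0 were lower at day 9, 0 were higher for the difference to day 5 and 0 were lower for that to day 9; the cause was not tested. Centring each library on its median and a second quantile normalization changed no call, on values already quantile-normalized by the authors. A planned comparison of edgeR and DESeq2 was not run, since the values are not counts.

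Only the counts that moved most in proportion are listed here and in the paragraph above. A direction that is not named moved less or not at all, and its count need not be 0. The counts depended most on the log2FC threshold. With none, *cco-1* RNAi over ev had 1 higher at day 1, 1 higher and 8 lower at day 3, 3 higher and 4 lower at day 5, 4 lower at day 7, 2 higher and 4 lower at day 9, and 2 higher and 5 lower at day 11. Against day 1, *cco-1* RNAi worms had 6 higher at day 3, 6 higher and 3 lower at day 5, and 8 higher at day 11, and ev worms had 8 higher at day 3 and 3 lower at day 5; the difference of age changes was lower for 5 to day 3, higher for 3 to day 5, lower for 4 to day 7, higher for 2 and lower for 3 to day 9, and lower for 5 to day 11. With a threshold of 1, *cco-1* RNAi over ev had 0 lower at days 3 and 9, 0 higher at days 5, 7 and 11, and 1 lower at day 7. Against day 1, *cco-1* RNAi worms had 0 higher and 0 lower at day 3, 0 lower at day 5 and 2 higher at day 11, and ev worms had 1 higher and 0 lower at day 3, 2 higher at day 5 and 2 higher at day 11; the difference of age changes was lower for 0 to day 3, higher for 0 to days 5, 7, 9 and 11, and lower for 0 to day 9.

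With replicate number as a block (replicate block), the counts were those of the fit without it, such as 2 lower at day 3 and 6 higher in ev worms at day 11. Same-numbered libraries of *cco-1* RNAi and ev correlated at -0.14 to 0.21 in their deviations from the group means, so that the numbers do not pair the samples. Depth is unknown, and 3 libraries a group limit the precision.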
